A study of Drosophila melanogaster with 12 samples.

Results

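This account concerns the genotype difference that S284Y mutant flies showed against wild-type (WT) flies over both rearing temperatures. Its members are arrays, chosen by title: the 6 arrays titled S284Y were set against the 6 titled WT, which makes up all 12 of the 12 arrays in the series. Total RNA of whole Drosophila melanogaster, pooled from 5 males and 5 females per sample, was hybridised to an Affymetrix fly array. The S284Y flies carry that mutation in dU2AF50, the product of the gene U2af50, and were grown either at 25C, which the labels call permissive, or at 30C, called restrictive, with 3 arrays at each. The WT flies were grown at the same temperatures, also with 3 arrays at each. The strain background and the age of the flies are not given in the sources used here. Differences due to the mutation and differences due to strain background or age therefore cannot be told apart. The genotype difference here means S284Y flies against WT flies, whatever its source. Whether pools of 1 group came from separate cultures is not given either, so p-values measure only the spread between these samples. For each of the 3 arrays titled WT 30C the free-text description gives 25C, and for array 1 of them it also calls the temperature permissive. Groups follow the titles here.

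U2AF is a dimer of a large and a small subunit that marks the 3′ end of introns before splicing. The large subunit binds the polypyrimidine tract and the small subunit the AG at the intron's end, after which the U2 small nuclear ribonucleoprotein, with its SF3b proteins, joins at the branch point. Many small nucleolar RNAs (snoRNAs), which guide chemical modification of ribosomal RNA, are released from introns of host genes and therefore depend on splicing.

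The values are probe-set signals, in linear intensity units with no reads or counts behind them, so precision is set by the number of arrays. Per array, the median signal lay between 401.25 and 546.45. S284Y 25C arrays 2 and 3 stood apart: over all tested probe sets the 3 S284Y 25C arrays correlated with their own group at a mean r of 0.839 to 0.872, against 0.946 to 0.957 for each of the other 9 arrays. Array 2 carried the highest single signal, 241444 for the yolk protein gene Yp1, and a summed signal of the 20 yolk and eggshell genes of 1566185, against 315165 to 591918 on the other 11 arrays. Array 3 carried the highest sum of the 22 male accessory gland genes, 282210, and the lowest sum of the 34 ovary and germline genes, 109518. The counts of genotype calls and the genes at both ends of the ranking are therefore given with and without arrays 2 and 3. So are the list counts that differed. The fit without arrays 2 and 3 keeps a single S284Y 25C array, so its genotype difference leans towards the higher temperature. The test of whether the genotype difference depended on temperature is given only with these arrays included. No signal was listed at 0. Without detection calls, which were not used here, a low signal is not shown to be above background.

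The signal of the mutated gene itself did not pass the threshold between genotypes. U2af50, the large subunit, had signals of 3723, 5116 and 6198 (lowest, median and highest of 6 arrays) in S284Y and of 3792, 4074 and 4894 in WT. U2af38, the small subunit, had 2290, 2869 and 3773 in S284Y and 2159, 2672 and 3365 in WT. Both genes overlapped between genotypes. The pooled log2 fold change, S284Y over WT on the log2(signal + 16) scale, was 0.24 ± 0.130 for U2af50 (SE, adjusted p = 0.447) and 0.09 ± 0.146 for U2af38 (adjusted p = 0.830). A single amino acid change would not be seen by a signal of this kind, so these values do not check the genotype labels.

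The genotype difference shared by both temperatures was estimated for 13966 probe sets with a limma model that holds genotype and temperature as additive terms. A probe set is called past the threshold here at a Benjamini-Hochberg adjusted p under 0.05. Of the 13966, 367 were called (2.63%), 118 higher and 249 lower in S284Y. At an unadjusted limma p under 0.05 there were 1968 of the 13966. List counts at an unadjusted p, given below, are to be read against that number. The comparison is rough, since that number covers both directions and all probe sets, while list counts use 1 probe set per gene. The called differences exceeded 2-fold in 221 probe sets, 67 higher and 154 lower. In whole flies, fewer cells of a type and less RNA per cell cannot be told apart. In terms of genes, each read from its brightest probe set, 298 of 10844 were called (2.75%), with 94 higher (0.867%) and 204 lower (1.88%). List counts of calls with all arrays, given below, are to be read against these shares. The median log2 fold change over all genes was -0.00374. Leaving out S284Y 25C arrays 2 and 3 gave 1164 called probe sets, 499 higher and 665 lower, which included 356 of the 367.

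Every one of the 367 called probe sets had the same sign at 25C and at 30C when the temperatures were estimated separately, a property that a pooled call favours. For 304 of them, 103 higher and 201 lower, the 3 S284Y arrays lay wholly on the same side of the 3 WT arrays at both temperatures. The same was true of 628 of all 13966 tested probe sets (4.5%). Among the called probe sets that were lower in S284Y, the median difference was -1.08 at 25C and -1.28 at 30C, and 160 of 249 had the larger difference at 30C. Among those higher in S284Y it was 1.10 at 25C and 1.04 at 30C, and 56 of 118 had the larger difference at 30C. The direct limma test of whether the genotype difference depended on temperature called 0 of 13966 probe sets, with 1127 at an unadjusted p under 0.05. It rests in part on the spread of the S284Y 25C arrays, some of which stood apart. It was not repeated without those arrays or with array weights. The absence of calls therefore does not show that the genotype difference was equal at both temperatures. The lowest adjusted p of that test was 0.147 overall and 0.263 among the pooled calls, of which 48 had an unadjusted p under 0.05. Some gene lists described below had median differences of opposite sign at 25C and 30C. These were -0.24 and 0.24 for ovary and germline genes and -0.29 and 0.31 for cell cycle and replication genes. Others kept their sign, such as the lysozymes (2.97 and 2.88). Where the signs differ, a pooled list median describes neither temperature.

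**Figure D1:**
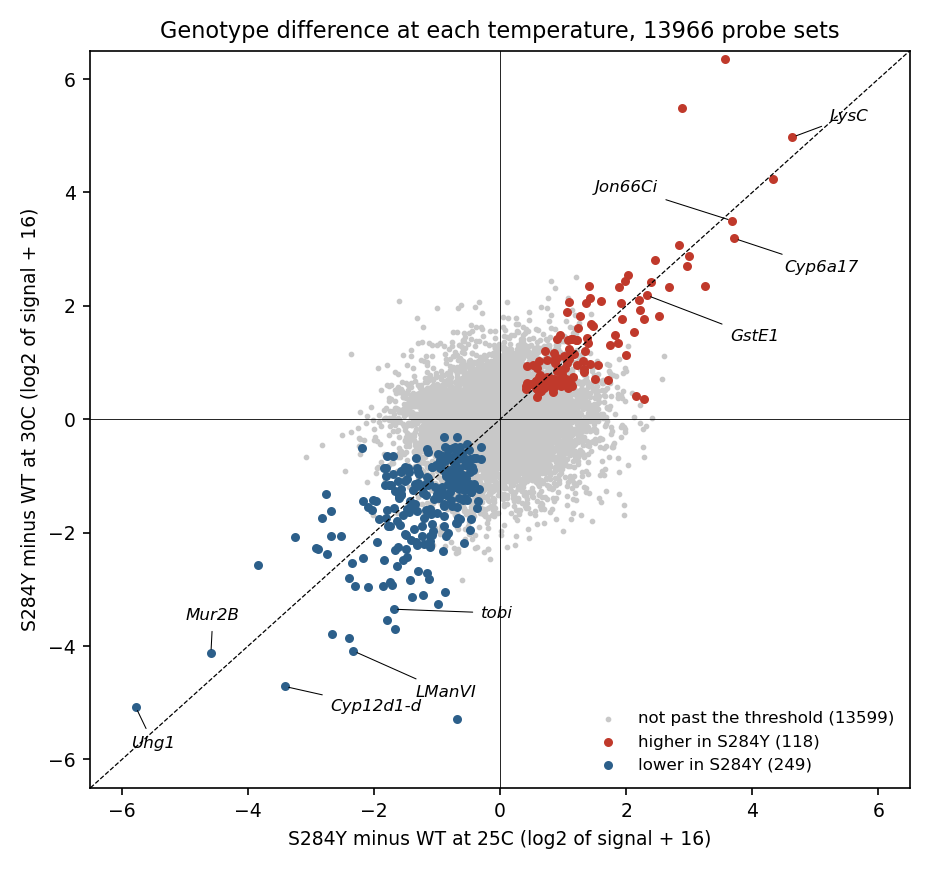
Genotype difference (S284Y minus WT, log2 of signal + 16) at 25C on the x axis and at 30C on the y axis, 1 point per probe set, with the dashed line marking equal differences. The 118 red and 249 blue points, higher and lower in S284Y in the pooled fit, all lie in the quadrants of equal sign; the named points reach 4.64 and 4.97 for LysC and -5.78 and -5.07 for Uhg1 at 25C and 30C.

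Both ends of the named genes came from a rule that asked for a call, 1 gene symbol, arrays apart at both temperatures and a signal above the dimmest 40% of probe sets. The 15 highest were LysC, LysD, Jon66Ci, Cyp6a17, LysP, LysB, LysE, GstD3, Def, CG11825, Naa80, GstE1, rhea, Acbp2 and Srg2. The 15 lowest were Uhg1, Mur2B, Cyp12d1-d, GstE8, alpha-Est10, LManVI, GstE7, Ser12, CG6277, CG6283, CG3819, lncRNA:CR9284, tobi, CG11400 and CG7408. Since the rule used these differences, the values below describe how far and how evenly the genes differed. Of the 62 genes named by this rule and by the rule for list members, 60 were called, and 46 of the 60 kept the call under every alternative setting that tested them, of 24 in all. Without S284Y 25C arrays 2 and 3 all 30 genes at the ends were called (highest adjusted p = 0.0305), and 29 of the 30 fold changes moved by no more than 1.5 times. They ran from 1.90 for Acbp2 to 4.71 for LysC and from -2.27 for CG7408 to -5.36 for Uhg1 on the log2 scale. The exception was alpha-Est10, at -2.40 without the 2 arrays.

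**Figure D2:**
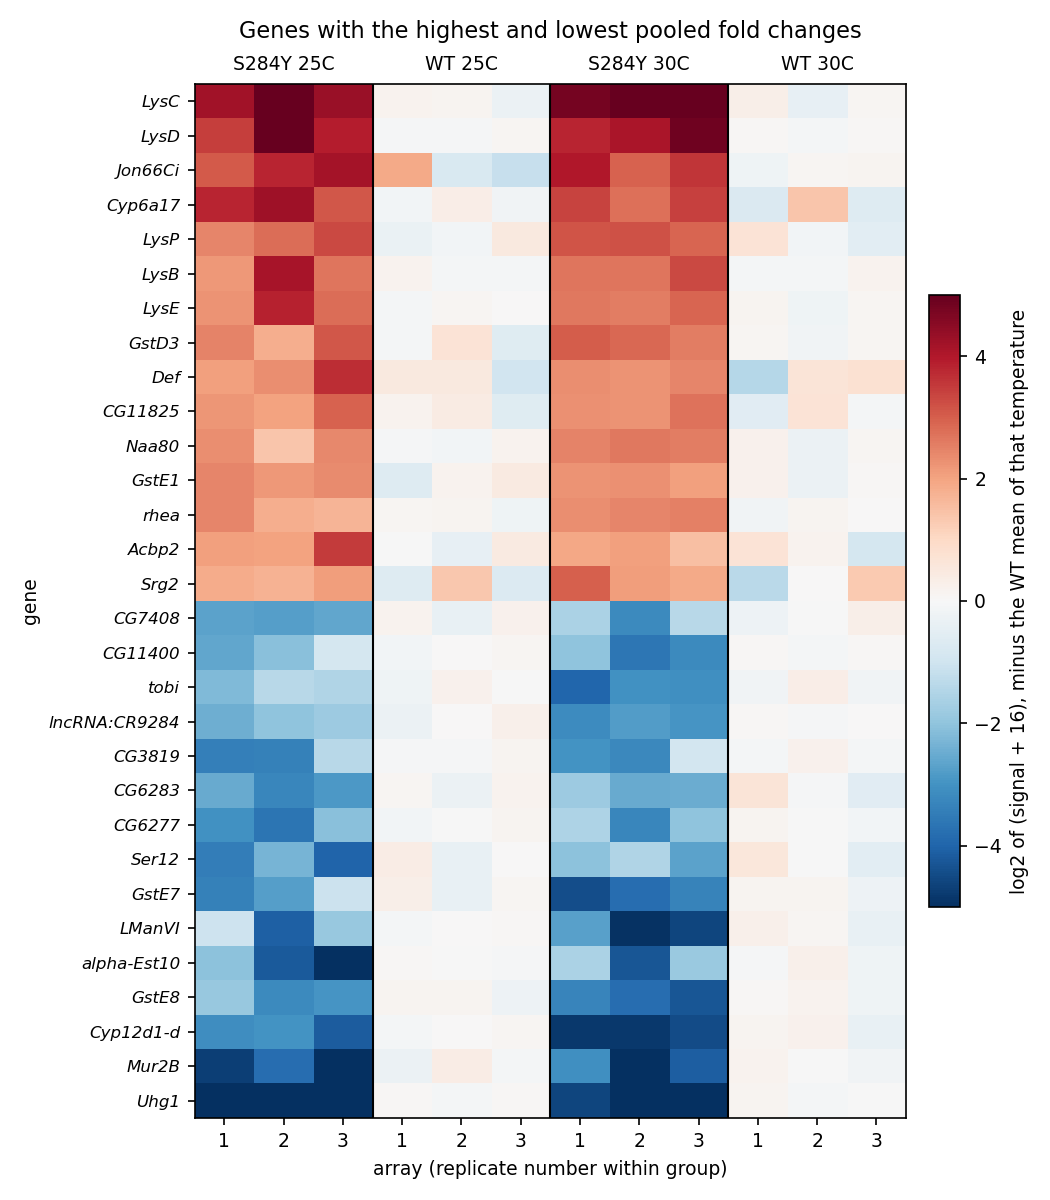
Log2 of (signal + 16) minus the WT mean of the same temperature, for the 15 highest and 15 lowest genes of the naming rule (rows). Columns are the 12 arrays, by group and replicate number. The rule asked for a call and for arrays apart at both temperatures, so the separation shown is partly built in. Called genes that failed the rule, such as alpha-Est2 (-2.68), are left out. The colour scale ends at 5 and -5, so Uhg1, with a pooled log2 fold change of -5.43, is at or near the end of the scale; every S284Y cell of LysC is red and every S284Y cell of Uhg1 is blue at both temperatures.

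Uhg1 was the gene with the lowest difference. It is a non-coding host gene whose introns carry snoRNAs. Its signals were 17.8, 34.6 and 15.9 on the S284Y 25C arrays and 2163, 1915 and 2150 on the WT 25C arrays. At 30C they were 56.7, 39.7 and 18.2 in S284Y and 1905, 1599 and 1677 in WT. The S284Y arrays thus lay far below the WT arrays with no overlap at either temperature. The pooled log2 fold change was -5.43 ± 0.260 (SE, 12 arrays, adjusted p = 5.25e-08) and -5.36 without S284Y 25C arrays 2 and 3. Because the S284Y signals lie near the added 16, the size depended on that offset: it was -6.06 with an offset of 1 and -4.39 with 64. A second non-coding RNA, lncRNA:CR9284, also fell. Its signals ran from 449.6 through a median of 549.1 to 753.1 in S284Y and from 2250 through 3598 to 4286 in WT, a log2 fold change of -2.53 ± 0.184 (adjusted p = 3.75e-06).

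Genes of the splicing machinery were called as follows. Among 22 genes of early spliceosome assembly, 1 was called higher and 0 lower, with 3 higher and 0 lower at an unadjusted limma p under 0.05 and a median log2 fold change of 0.19. That is 4.55% of the list called higher, against 0.867% of all genes. The called gene was Phf5a, a subunit of SF3b, with signals of 1718, 2321 and 3204 (lowest, median, highest) in S284Y and 1141, 1351 and 1715 in WT. Its arrays were apart within each temperature, and its log2 fold change was 0.79 ± 0.168 (adjusted p = 0.0212). That call was lost (adjusted p 0.0528 to 0.0651) without S284Y 30C array 1 or 2, WT 25C array 1 or 2, or WT 30C array 2 or 3, and without the variance trend (adjusted p = 0.0568). None of 17 SR and hnRNP splicing regulators, 18 mRNA export and decay genes, 11 sex-determination genes or 12 hand-listed genes without introns was called by limma, with 1, 1, 1 and 0 of them at an unadjusted p under 0.05. Without S284Y 25C arrays 2 and 3, 3 early spliceosome genes, 2 SR and hnRNP genes and 2 export and decay genes were called higher, and 1 sex-determination gene was called lower.

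Among called probe sets with 1 gene symbol, LysC and LysD had the highest differences. They are digestive lysozymes, enzymes that cut bacterial cell walls and that flies use in the gut to digest bacteria. Of 7 measured lysozyme genes 5 rose and 0 fell, with a median log2 fold change of 2.94. LysC had signals of 40237, 93677 and 43284 on the S284Y 25C arrays and 2458, 2390 and 1772 on the WT 25C arrays. At 30C it had 28423, 34419 and 33505 in S284Y and 1244, 751.7 and 1077 in WT. The lowest S284Y signal lay far above the highest WT signal, and the pooled log2 fold change was 4.80 ± 0.207 (adjusted p = 2.57e-08). LysD followed at 4.29 ± 0.290, LysB at 2.94 ± 0.262 and LysE at 2.84 ± 0.214. The array reads LysB to LysE with family-type probe sets, which share sequence between relatives, so these 4 cannot be read as independent genes; LysC is listed as a pseudogene in the RefSeq table used. LysP, the lysozyme known from the salivary glands, has a probe set of its own type. Its signals were 1087, 1367 and 2601 in S284Y and 86.9, 206.4 and 356.5 in WT (log2 fold change 2.96 ± 0.241, adjusted p = 8.89e-06). The remaining lysozymes overlapped between genotypes: LysS had a log2 fold change of -0.12 ± 0.208 (adjusted p = 0.838) and LysX one of -0.37 ± 0.306 (adjusted p = 0.648).

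**Figure D3:**
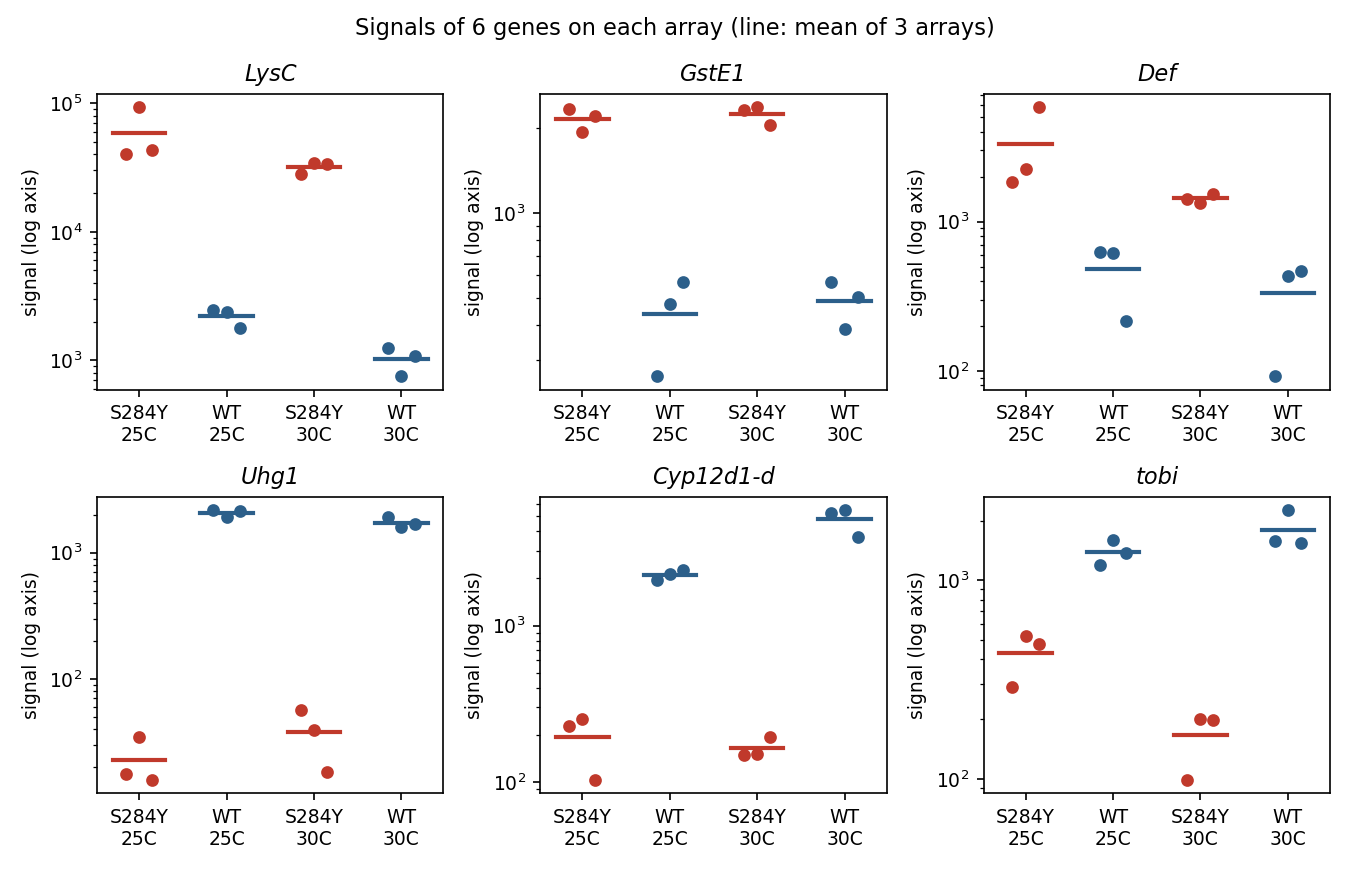
Signal of 6 genes on each array (points, logarithmic axis, which differs between panels) with the mean of the 3 arrays of a group (line), in the order S284Y 25C, WT 25C, S284Y 30C, WT 30C. LysC, GstE1 and Def lie higher and Uhg1, Cyp12d1-d and tobi lower on every S284Y array than on every WT array of the same temperature; LysC runs from 28423 to 93677 in S284Y and from 751.7 to 2458 in WT.

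Other digestive enzymes went both ways. The median difference of the gut serine proteases was 0.27 at 25C and -0.61 at 30C, so their pooled median describes neither temperature. Of 28 gut serine proteases, 2 rose and 1 fell (median -0.27), and without S284Y 25C arrays 2 and 3 these counts were 2 and 9. Jon66Ci, a Jonah-type protease of the midgut, had signals of 656.4, 1434 and 3097 in S284Y, against a median of 79.1 and a highest value of 637.0 in WT. Only WT 25C array 1 came near the S284Y range, and the log2 fold change was 3.59 ± 0.437 (adjusted p = 0.000358). The trypsin gene betaTry ran from 28245 to 91722 in S284Y and from 12841 to 19897 in WT (1.27 ± 0.216, adjusted p = 0.0047). Ser12, another serine protease gene, was lower, with a median of 73.0 and a highest value of 143.8 in S284Y and with 298.4, 579.3 and 864.2 in WT (-2.67 ± 0.374, adjusted p = 0.00122).

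Starch and sugar digestion genes fell where they were called. Of 12 maltases and amylases, 0 rose and 4 fell, with a median of -1.21, and without S284Y 25C arrays 2 and 3 there were 7 lower calls. Mal-A1 encodes a maltase, an enzyme that splits glucose units off short sugar chains. Its signals were 2255, 3110 and 4625 in S284Y and 5986, 7256 and 7973 in WT, with a log2 fold change of -1.20 ± 0.144 (adjusted p = 0.000325). Mal-B2 had -1.67 ± 0.272 (adjusted p = 0.00364). For Mal-A8 (-1.42 ± 0.319, adjusted p = 0.0288) and Mal-A6 (-1.22 ± 0.269, adjusted p = 0.0257) the arrays overlapped at 25C, and the calls were less stable. The Mal-A6 call was lost (adjusted p 0.0518 to 0.0767) without S284Y 25C array 1, without any single S284Y 30C array and without any single WT 30C array, with median centring and without the variance trend. The Mal-A8 call was lost (adjusted p 0.0513 to 0.0763) without S284Y 25C array 1, any single S284Y 30C array, WT 25C array 2 or 3, or any single WT 30C array. Amy-d, an amylase gene, had signals of 11744, 15634 and 44470 in S284Y and 13064, 14190 and 15383 in WT and was not called (0.40 ± 0.237, adjusted p = 0.494).

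The lipase family was split in direction. Of 19 lipase-family genes 3 rose and 5 fell, and the median was -0.58. Without S284Y 25C arrays 2 and 3 the list counts differed and the median was -0.41. CG6277 had signals of 107.1, 338.4 and 854.2 in S284Y and 1071, 2320 and 4069 in WT (-2.59 ± 0.306, adjusted p = 0.000279). CG6283, its neighbour on chromosome arm 3R, had -2.58 ± 0.281 (adjusted p = 0.000133). CG6295 on the same arm went the other way. It had 7843, 8842 and 14228 in S284Y and 2609, 3888 and 5256 in WT, with no overlap (1.41 ± 0.140, adjusted p = 5.48e-05). CG5162 on the X chromosome fell, with -1.16 ± 0.147 (adjusted p = 0.000521).

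Lysosomal alpha-mannosidases, enzymes that trim mannose from glycoproteins in the lysosome, fell in 5 of 6 measured members (0 rose, median -1.92). LManVI had signals of 2938, 336.3 and 1613 on the S284Y 25C arrays and 5542, 6140 and 6289 on the WT 25C arrays. At 30C it had 337.5, 60.8 and 80.9 in S284Y and 2754, 2521 and 1815 in WT. The S284Y arrays varied widely among themselves but lay below WT at each temperature, and the pooled log2 fold change was -3.21 ± 0.511 (adjusted p = 0.00312). LManV had -1.99 ± 0.318 (adjusted p = 0.0032), LManII -1.47 ± 0.230 (adjusted p = 0.00289) and LManIII -1.96 ± 0.422 (adjusted p = 0.0217). LManV also has a dim second probe set, with -0.49 ± 0.393 (adjusted p = 0.627), and its call was lost in a fit without the temperature term (adjusted p = 0.0611). The LManIII call did not survive leaving out S284Y 30C array 3 or any single WT 30C array (adjusted p 0.0560 to 0.0672). It also ended without the temperature term (adjusted p = 0.217) and when WT 30C array 1 was put at 25C, as its description reads (-1.62, adjusted p = 0.0914). The fifth called member, LManIV, had -1.89 ± 0.433 (adjusted p = 0.0324), a call lost (adjusted p 0.0518 to 0.0892) without S284Y 30C array 1 or 2 or any single WT array. It was also lost under some other settings. LManI was not called (-0.70 ± 0.393, adjusted p = 0.464).

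Among the detoxification genes, the cytochrome P450s, a long list, held the largest number of calls of any list but not the largest share. Of the list, 14.5% were called lower and 2.41% higher, against 1.88% and 0.867% of all genes. Of 83 cytochrome P450 genes, the oxidising enzymes of drug, insecticide and hormone metabolism, 2 rose and 12 fell (median -0.19). Without S284Y 25C arrays 2 and 3 the counts were 3 and 19. Cyp12d1-d, a mitochondrial P450 known from insecticide resistance, had signals of 229.8, 253.4 and 103.7 on the S284Y 25C arrays and 1965, 2139 and 2251 on the WT 25C arrays. At 30C it had 149.7, 152.2 and 194.7 in S284Y and 5227, 5432 and 3678 in WT, so the S284Y signals were low at both temperatures while those of WT were higher at 30C. The pooled log2 fold change was -4.06 ± 0.269 (adjusted p = 1.55e-06). Cyp6a8, an inducible P450, had -2.27 ± 0.331 (adjusted p = 0.00171), Cyp6a13 had -1.97 ± 0.271 (adjusted p = 0.00104) and Cyp4e3 had -2.13 ± 0.401 (adjusted p = 0.0104). Cyp6a17, known for a role in the temperature preference of flies, was the highest of the P450 genes. Its signals were 235.3, 394.1 and 529.4 in S284Y and ran from 8.70 to 88.7 in WT. In WT all but array 2 of 30C lay near or below the added 16, and the log2 fold change of 3.45 ± 0.381 (adjusted p = 0.000145) was 4.41 with an offset of 1 and 2.32 with 64. Its neighbour Cyp6a23, named here because it adjoins Cyp6a17, ran from 297.9 to 551.8 in S284Y and from 527.0 to 1758 in WT (-1.18 ± 0.223, adjusted p = 0.0107). The Cyp6a23 call was lost under 2 alternatives (highest adjusted p = 0.0792).

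Glutathione S-transferases (GSTs), which attach glutathione to toxic compounds, showed opposite differences within 1 subfamily. Of 35 GST genes 2 rose and 5 fell, and the median was 0.03; without S284Y 25C arrays 2 and 3 the counts were 2 and 8. GstE1 had signals of 1941, 2258 and 2374 in S284Y and 263.2, 489.4 and 568.4 in WT, a log2 fold change of 2.26 ± 0.181 (adjusted p = 7.79e-06). GstD3 had 2.64 ± 0.243 (adjusted p = 2.63e-05). GstE6, GstE7 and GstE8 were lower. GstE8 had signals of 40.7, 81.6 and 206.0 in S284Y and 659.5, 899.3 and 1202 in WT (-3.23 ± 0.311, adjusted p = 4.02e-05). GstE6, the brightest of them, had 688.2, 925.2 and 2150 in S284Y and 4366, 5166 and 5914 in WT (-2.30 ± 0.221, adjusted p = 4.02e-05). GstE7 had -3.13 ± 0.422 (adjusted p = 0.000891), with S284Y signals down to 7.90; it was -3.74 with an offset of 1 and -2.26 with 64. Of 12 carboxylesterases, 0 rose and 2 fell: alpha-Est10 (-3.21 ± 0.538, adjusted p = 0.00437, and -2.40 without S284Y 25C arrays 2 and 3) and alpha-Est2 (-2.68 ± 0.466, adjusted p = 0.00565), the arrays of which overlapped at 25C and which had -2.01 with an offset of 64. Without the 2 arrays 4 carboxylesterases were called lower. None of 33 UDP-glycosyltransferases was called by limma, with 2 higher and 3 lower at an unadjusted p under 0.05.

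**Figure D4:**
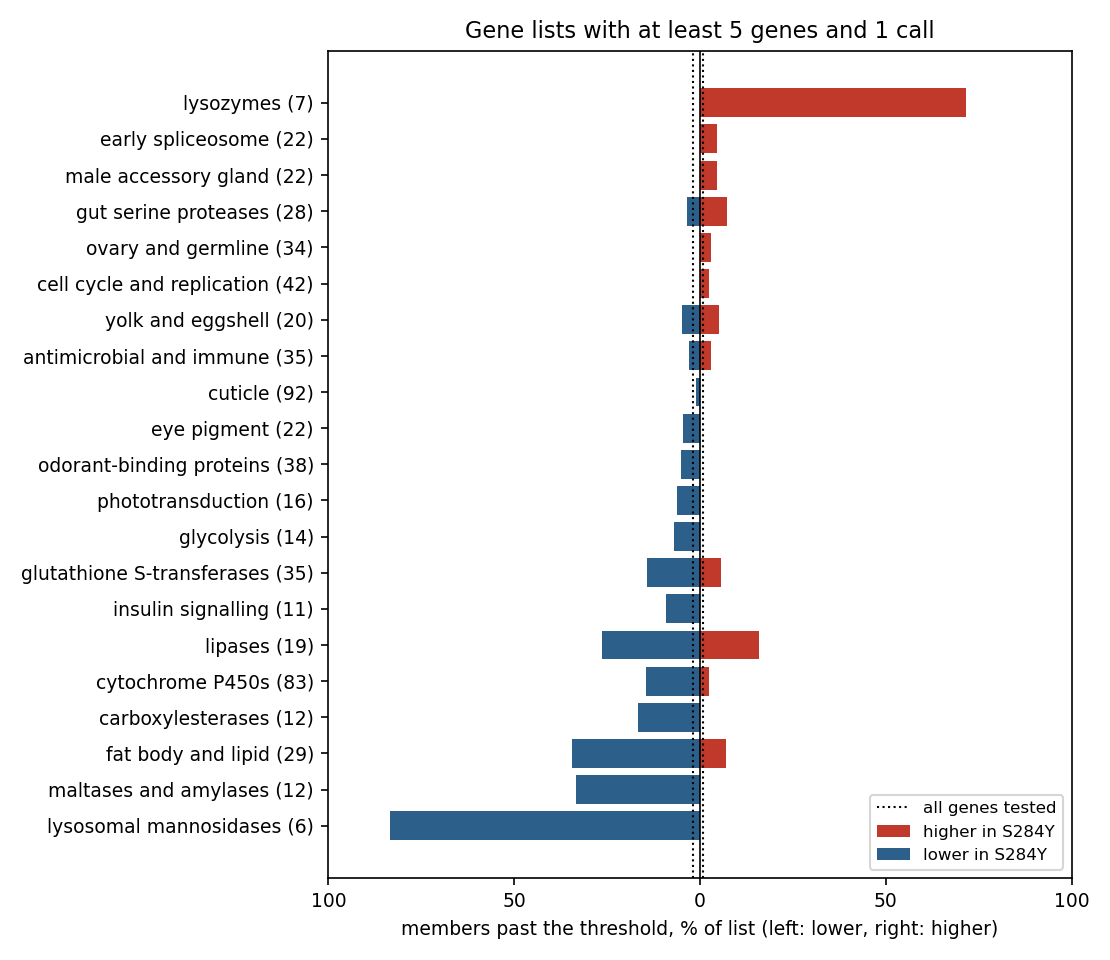
Share of each gene list's measured members called in the pooled fit, lower in S284Y to the left in blue and higher in S284Y to the right in red, for lists with at least 5 measured genes (number in brackets) and at least 1 call. Dotted lines mark the shares over all genes, 1.88% lower and 0.867% higher; the lysozymes (5 of 7 higher) and the lysosomal mannosidases (5 of 6 lower) have the longest bars.

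Genes of the fat body, the fly's organ of storage and intermediary metabolism, were mostly lower where they were called. Of 29 fat body and lipid genes 2 rose and 10 fell (median -0.47), and without S284Y 25C arrays 2 and 3 these counts were 3 and 13. The summed signal of the 29 genes was 80964 to 97415 on the S284Y 25C arrays and 104063 to 114702 on the WT 25C arrays. At 30C it was 73074 to 75641 in S284Y and 104935 to 106764 in WT, so the sums were apart at each temperature. Lsp2, a storage hexamer, had signals of 1062, 2060 and 5434 in S284Y and 4786, 9043 and 12661 in WT (-1.98 ± 0.191, adjusted p = 4.02e-05). Its arrays overlapped across temperatures but not within either. Pepck2, a phosphoenolpyruvate carboxykinase of gluconeogenesis, had 263.2, 365.0 and 540.1 in S284Y and 1039, 1354 and 1568 in WT (-1.82 ± 0.164, adjusted p = 2.25e-05). Pepck1 was not called (-0.65 ± 0.165, adjusted p = 0.0553). The alpha-glucosidase-like gene tobi, known as a target of insulin-producing cells of the brain, had 99.1, 245.0 and 521.6 in S284Y and 1198, 1564 and 2248 in WT (-2.52 ± 0.310, adjusted p = 0.00039). It was the 1 gene called among 11 genes of insulin signalling and its targets. Obp99b, an odorant-binding protein gene also made in the fat body, had -1.77 ± 0.267 (adjusted p = 0.0021), and Obp56a had -1.46 ± 0.265 (adjusted p = 0.00747); these were the 2 lower and there were 0 higher calls among 38 odorant-binding protein genes. Treh, the trehalase that splits the blood sugar of insects, fell modestly (-0.65 ± 0.127, adjusted p = 0.0129) and was the 1 call among 14 genes of glycolysis and sugar entry. Acbp2, an acyl-CoA binding protein gene kept in no list, rose, with signals of 3268, 5119 and 15158 in S284Y and 621.3, 1310 and 1848 in WT (2.17 ± 0.307, adjusted p = 0.0013).

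Immune genes showed 1 higher and 1 lower call among 35, with a median of 0.13. That median was 0.49 at 25C and -0.22 at 30C. Def, the antibacterial peptide defensin, had signals of 1337, 1696 and 5850 in S284Y and 92.3, 452.4 and 622.9 in WT. The 2 genotypes did not overlap, and the log2 fold change was 2.50 ± 0.400 (adjusted p = 0.00314). GNBP3, a sensor of fungal cell walls, had -0.90 ± 0.219 (adjusted p = 0.0455). That call was lost (adjusted p 0.0690 to 0.117) without any single S284Y 30C array or any single WT array. It was also lost with 4 group means, without the temperature term and when WT 30C array 1 was put at 25C (adjusted p 0.0509 to 0.0708). With the replicate number as a block the GNBP3 call was lost as well (adjusted p = 0.0845). The list had 3 higher and 2 lower calls without S284Y 25C arrays 2 and 3. None of 14 heat-shock and chaperone genes was called by limma, with 2 higher and 0 lower at an unadjusted p under 0.05, and both Turandot stress genes were uncalled, with 0 at an unadjusted p under 0.05.

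Several genes at the ends of the ranking belong to no list. Mur2B, a mucin-related gene on the X chromosome, had signals of 31.7, 71.3 and 202.5 in S284Y and 1470, 1732 and 2339 in WT (-4.36 ± 0.345, adjusted p = 7.2e-06, and -3.73 with an offset of 64). Naa80, the acetyltransferase of actin's N-terminus, had 1069, 2193 and 2461 in S284Y and 313.6, 397.6 and 456.8 in WT (2.29 ± 0.197, adjusted p = 1.54e-05). The probe set of rhea, the gene of the adhesion protein talin, had 1423, 2446 and 2957 in S284Y and 357.0, 459.2 and 547.3 in WT (2.21 ± 0.164, adjusted p = 3.93e-06). A second probe set of rhea did not show this (-0.37 ± 0.227, adjusted p = 0.514), so the value belongs to 1 of its 2 probe sets. Probe sets of 1 gene often differed: of 35 genes with several probe sets and at least 1 call, all were called in 2, and 16 had a probe set of opposite sign. CG11825 rose (2.40 ± 0.286, adjusted p = 0.000299). CG3819 (-2.56 ± 0.434, adjusted p = 0.0047), CG11400 (-2.39 ± 0.360, adjusted p = 0.0021) and CG7408 (-2.37 ± 0.329, adjusted p = 0.00113) fell. Srg2 had signals of 224.2, 372.0 and 504.7 in S284Y and 9.40, 54.4 and 264.1 in WT (2.11 ± 0.467, adjusted p = 0.0258). The Srg2 call was lost (adjusted p 0.0552 to 0.0730) without S284Y 30C array 1 or 2, WT 25C array 1 or 3, or WT 30C array 1 or 2. Of the 367 called probe sets, 50 carried several gene symbols or none, among them a family-type probe set annotated to several genes, with the highest difference of all called (4.96 ± 0.799, adjusted p = 0.00329).

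Marker lists of reproductive and other tissues had few calls with all 12 arrays, and some of their counts differed without the 2 arrays that stood apart. Counts without those arrays, here and for all other lists, are to be read against the larger number of calls that this fit gave over all probe sets. Those higher and lower calls are given above, beside the pooled calls. With a single S284Y 25C array left, that fit leans towards 30C. Where list medians differed in sign between temperatures, the median of that fit had the sign of 30C. It was 0.25 for cell cycle and replication genes, against -0.29 at 25C and 0.31 at 30C. For gut serine proteases it was -0.51, against 0.27 and -0.61. Such counts are therefore not read as differences shared by both temperatures. A count of 1 or 2 members of a list is not read as a result about it. Of 20 yolk and eggshell genes 1 rose and 1 fell, and without those 2 arrays 1 was called higher and 7 lower. Yp1, a yolk protein made by females, had signals of 32411, 40459 and 241444 in S284Y and 6080, 17687 and 33960 in WT, with overlap at 25C (1.84 ± 0.456, adjusted p = 0.0494). That call was lost (adjusted p 0.0565 to 0.130) without S284Y 25C array 2, any single S284Y 30C array, any single WT 25C array, or WT 30C array 1 or 2. It was also lost with an offset of 1, without the variance trend, with 4 group means, without the temperature term and when WT 30C array 1 was put at 25C (adjusted p 0.0513 to 0.0889). The other yolk protein genes were not called, at 0.90 ± 0.336 for Yp2 (adjusted p = 0.228) and 0.95 ± 0.336 for Yp3 (adjusted p = 0.195). The eggshell protease gene ndl had -1.08 ± 0.254 (adjusted p = 0.0365), a call lost (adjusted p 0.0507 to 0.100) without any single S284Y 30C or WT array, without the variance trend and without the temperature term. The ndl call was also lost with the replicate number as a block (adjusted p = 0.0573). Among 34 ovary and germline genes 1 was called, png, a kinase of egg activation, with 1350, 1582 and 1808 in S284Y and 759.2, 942.9 and 1128 in WT (0.73 ± 0.138, adjusted p = 0.0107). Of the 34, 7 were called higher without S284Y 25C arrays 2 and 3. Acp32CD, a seminal fluid protein gene, was the 1 call among 22 accessory gland genes (1.03 ± 0.221, adjusted p = 0.0215), and it was lost (adjusted p 0.0510 to 0.0677) without S284Y 30C array 1, WT 25C array 1 or 3, or any single WT 30C array. Of 42 testis genes 0 were called by limma, with 1 higher and 1 lower at an unadjusted p under 0.05, and without the 2 arrays 6 were called lower. The summed signal of the testis genes was 88915 to 137585 on the S284Y 25C arrays and 89790 to 94529 on the WT 25C arrays, and 76578 to 84167 on the S284Y 30C arrays and 84049 to 91045 on the WT 30C arrays. The ovary and germline sums were 109518 to 163612 on the S284Y 25C arrays and 151396 to 160293 on the WT 25C arrays. At 30C these sums were apart, at 177855 to 202260 in S284Y and 157685 to 161503 in WT. S284Y 30C array 3 had the lowest accessory gland sum (65220), the lowest testis sum and the highest ovary and germline sum of all 12 arrays. The part of tissue or sex composition in the gene differences was not tested.

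Eye, muscle and nerve markers held 2 calls, both lower in S284Y, which is close to the 2.75% called over all genes. Of 16 phototransduction genes 1 fell, chp, the photoreceptor surface protein chaoptin (-0.90 ± 0.184, adjusted p = 0.0162). Leaving out WT 25C array 1 ended its call (adjusted p = 0.0507), as did leaving out WT 30C array 3 (adjusted p = 0.0515). Of 22 eye pigment genes 1 fell, Pu, the GTP cyclohydrolase of pteridine synthesis (-0.96 ± 0.223, adjusted p = 0.0343). The Pu call was lost (adjusted p 0.0538 to 0.0997) without S284Y 25C array 2, any single S284Y 30C array or any single WT array. It was also lost with quantile normalization (adjusted p = 0.0722), with median centring (adjusted p = 0.0824), without the temperature term (adjusted p = 0.228) and when WT 30C array 1 was put at 25C (adjusted p = 0.175). With the replicate number as a block the Pu call was lost as well (adjusted p = 0.0706). None of 17 muscle, 19 nervous system, 12 circadian clock or 17 DNA damage and apoptosis genes was called by limma. At an unadjusted p under 0.05 there were 4, 0, 3 and 0 of them, against 1968 of all 13966 probe sets. Of 92 cuticle genes 1 fell, Cpr72Ec (-1.35 ± 0.278, adjusted p = 0.017), a call lost with quantile normalization (adjusted p = 0.0505).

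Housekeeping lists held few or no calls. Among 29 cytoplasmic ribosomal protein genes 0 were called by limma, with 8 higher and 0 lower at an unadjusted p under 0.05. Their median log2 fold change was 0.30, with 27 of 29 above 0, and it was 0.01 after quantile normalization, so no direction is given. Of 66 mitochondrial ribosomal protein genes 0 were called, with 5 higher and 0 lower unadjusted (limma) and a median of 0.12. Each of these lists had 1 gene called higher without S284Y 25C arrays 2 and 3, and 1 cytoplasmic ribosomal protein gene was then called lower. Of 30 proteasome genes 0 were called, with 6 higher and 1 lower unadjusted, and of 69 oxidative phosphorylation genes 0 were called, with 1 higher and 4 lower unadjusted (limma). Among 42 cell cycle and replication genes 1 was called, Prim1, a DNA primase subunit (0.89 ± 0.207, adjusted p = 0.0347). The Prim1 call was lost (adjusted p 0.0583 to 0.0974) without S284Y 25C array 1, any single S284Y 30C array, any single WT 25C array, or WT 30C array 1 or 2, and with quantile normalization or median centring (adjusted p 0.0533 and 0.0555). It was also lost with the replicate number as a block (adjusted p = 0.0565). Of the 42, 8 were called higher without S284Y 25C arrays 2 and 3. In the same fit there were 2 higher and 1 lower calls among proteasome, 0 and 3 among oxidative phosphorylation, 0 and 3 among cuticle, 0 and 5 among odorant-binding protein, 2 and 2 among accessory gland, and 1 and 0 each among heat-shock, muscle and DNA damage genes.

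The called genes were not spread evenly over the chromosome arms. On the X chromosome, which also carries U2af50, 18 of 1760 genes were called (1.02%), 5 higher and 13 lower. On the 4 large autosomal arms 278 of 8978 were called (3.10%), with 3.39% on 2L, 3.54% on 2R, 3.27% on 3L and 2.39% on 3R. Without S284Y 25C arrays 2 and 3 the shares were 5.51% on the X chromosome and 9.76% on the autosomal arms. The median log2 signal of X genes was 9.35, against 9.11 to 9.22 on the 4 autosomal arms. These shares are a description, since genes are not independent replicates.

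**Figure D5:**
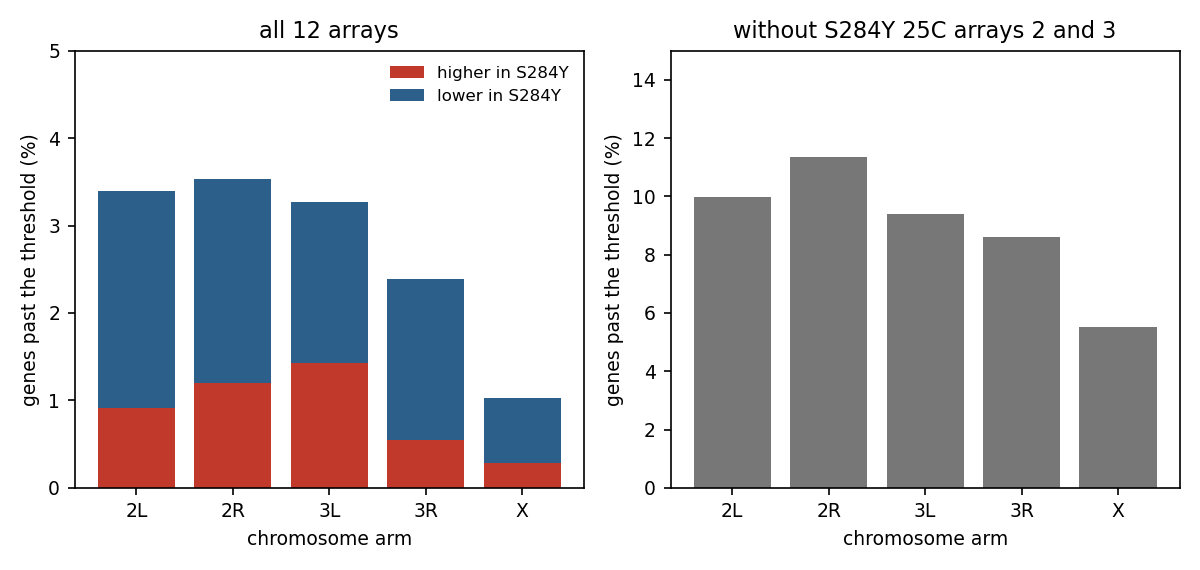
Share of the genes of each large chromosome arm that were called, with all 12 arrays (left, split into higher in red and lower in blue) and without S284Y 25C arrays 2 and 3 (right, both directions together); the y axes differ. In both panels the X chromosome has the lowest share, 1.02% and 5.51%.

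Some called genes lay side by side. With 10795 genes placed in the order of the RefSeq gene table, 42 of the 298 called genes adjoined another called gene, in 17 runs, of which 14 had 1 direction. The longest run was that of LysB, LysC, LysD, LysE and LysP on 3L, 5 genes that all rose, with the shared probe sequence noted above. GstE5, GstE6, GstE7 and GstE8 on 2R all fell, as did LManIII, LManIV, LManV and LManVI on 2L. The run of lipase-family genes CG6296, CG6295 and CG17192 on 3R held 2 genes that rose and 1 that fell. Cyp6a17 and Cyp6a23 on 2R, described above, differed in direction, as did ergic53 and rhea on 3L.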

How the data were processed

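The deposited table holds linear probe-set intensity of a 1-colour Affymetrix fly array, 1 value per probe set and array; the authors' summarisation and scaling are not given in the sources used here. The arrays were already on 1 scale, with 2% trimmed means between 1000.12 and 1000.18, so the deposited intensity was used without further normalization. The table lists 14010 probe sets, and 44 controls were set aside; 12443 of the 13966 tested carried 1 gene symbol, 327 several and 1196 none, and symbols were updated to RefSeq by Entrez number (49 kept the array's). Gene lists use each gene's brightest probe set.

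Differences are S284Y minus WT of log2(signal + 16), which damps fold changes of dim probe sets. limma 3.58.1 in R 4.3.3 fitted genotype and temperature as additive terms on all 12 arrays (eBayes with trend, Benjamini-Hochberg over all tested probe sets, threshold 0.05); the interaction and the differences at each temperature came from 4 group means. The fit was tested on simulated data. Errors are standard errors of the fit.

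Named genes were, among called probe sets with 1 symbol, arrays apart on the same side at both temperatures and the higher genotype at or above the 40th percentile of mean log2 signal (8.30), the 15 highest and 15 lowest; U2af50 and U2af38; up to 4 called members of each list with the lowest adjusted p; and the 3 called genes with the largest interaction estimates (alpha-Est2, Cyp4e3 and LManIII). Other genes were named after their values were seen. The groups, lists and rules were chosen with earlier results of these data known. Alternatives were other offsets, normalizations, filters, models, a relabelled array, array weights and leaving out arrays. Same-numbered arrays did not deviate together (mean r -0.008), so replicate numbers were not taken as pairs.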

Additional observations from a re-analysis of the deposited data

How the results depend on the processing

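Under the 24 alternatives every one of the 367 called probe sets that was tested kept its direction. This outcome was largely set beforehand, since the alternatives refit mostly the same arrays that gave the calls. Without the variance trend, with 4 group means, without the temperature term and with the replicate block, the fold change cannot differ at all. The count of calls stayed within 1.5 times of 367, from 259 without the temperature term to 422 with 4 group means, under other offsets, quantile normalization, median centring, the filter on dim probe sets, no trend and WT 30C array 1 moved to 25C (321). Median centring gave 119 higher and 186 lower and shifted the median of all probe sets by 0.06. Array weights gave 1107 calls, 416 higher and 691 lower, of which 462 were apart at both temperatures; the weights were 0.298 and 0.111 for S284Y 25C arrays 2 and 3. Without those 2 arrays there were 1164 calls, 499 higher and 665 lower. Leaving out 1 array gave 228 (without WT 30C array 2) to 973 (without S284Y 25C array 3) calls, 72 to 367 higher and 153 to 606 lower; the count was 239 when WT 30C array 1 was left out, and 243 when WT 30C array 3 or S284Y 30C array 2 was. The cause was not tested. With the replicate number as a block there were 291 calls, 92 higher and 199 lower; the arrays share only a number. Of 1476 values of named genes under alternatives, 113 lost their call and 0 reversed, with the same limit on what a kept direction shows. Of all 298 called genes, 148 kept the call throughout, 50 higher and 98 lower, and 130 lost it when some single array was left out. Signals near the added 16 limit the size of the lowest values.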

Other observations

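The genes in these paragraphs were chosen after their values were seen and are given as values. Since Uhg1 carries snoRNAs, the core proteins that bind snoRNAs were looked up. Nop60B, the pseudouridine synthase of the H/ACA class, had signals of 482.1, 557.0 and 632.4 (lowest, median and highest of 6 arrays) in S284Y and 87.2, 156.0 and 213.4 in WT, with no overlap; its log2 fold change was 1.84 ± 0.256 (SE, adjusted p = 0.00112). It kept the call under every alternative that tested it. Gar1, a partner in the same particle, had 1257, 2044 and 2498 in S284Y and 2719, 3101 and 3356 in WT, and was lower (-0.67 ± 0.127, adjusted p = 0.0107). The Gar1 call was lost under 1 alternative (adjusted p = 0.0730). Nop10 had 0.76 ± 0.184 (adjusted p = 0.0413), a call lost (adjusted p 0.0684 to 0.109) without S284Y 25C array 1, S284Y 30C array 1 or 2, or any single WT array. It was also lost under some other settings. NHP2 was not called (0.52 ± 0.177, adjusted p = 0.177). Of the C/D class, the methyltransferase Fib (0.32 ± 0.110, adjusted p = 0.177) and Nop56 (0.07 ± 0.117, adjusted p = 0.824) were not called. U3-55K, which binds the U3 snoRNA, had 0.71 ± 0.163 (adjusted p = 0.0333), a call lost (adjusted p 0.0524 to 0.0929) without S284Y 25C array 2, any single S284Y 30C array, WT 25C array 2 or 3, or WT 30C array 1 or 3. It was also lost under some other settings (highest adjusted p = 0.150).

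Some further called genes, picked by hand from those that kept their calls under every alternative that tested them, are given singly and stand for no group. Gabat, which degrades the transmitter GABA, had 319.0, 497.0 and 850.4 in S284Y and 941.8, 1257 and 1808 in WT (-1.32 ± 0.178, adjusted p = 0.000896). PCB, the pyruvate carboxylase that feeds gluconeogenesis, had 1473, 2897 and 4039 in S284Y and 5137, 6407 and 8751 in WT (-1.25 ± 0.207, adjusted p = 0.00394). Agxt, an aminotransferase, had -1.25 ± 0.224 (adjusted p = 0.00671), the D-amino acid oxidase gene Daao2 had -1.77 ± 0.327 (adjusted p = 0.0087) and pug, a folate-pathway enzyme, had -1.12 ± 0.182 (adjusted p = 0.00364). The gene stil, needed in the female germline, had 500.4, 829.4 and 939.4 in S284Y and 2673, 3851 and 4649 in WT (-2.29 ± 0.170, adjusted p = 3.93e-06). The piRNA pathway gene rhi had 405.0, 463.8 and 559.5 in S284Y and 129.8, 216.8 and 306.2 in WT (1.11 ± 0.223, adjusted p = 0.0153), and nxf2, which acts in piRNA-guided silencing, had 135.1, 293.6 and 409.4 in S284Y and 689.1, 779.1 and 936.7 in WT (-1.52 ± 0.235, adjusted p = 0.00257).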
